A study of Mus musculus with 12 samples.

Results

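The genes described are 34 peroxisomal genes of the 16821 listed for mouse liver, 13 peroxins (the proteins that build the organelle) and 21 peroxisomal enzymes, transporters and membrane proteins. They were chosen by gene symbol, and every one was found in the files. Liver RNA came from 12 adult male C57BL/6J mice, 8 weeks old at purchase and given 1 week to adapt, with 6 mice in the sedentary control (Con) group and 6 in the chronic exercise (Exe) group. Exe mice trained by treadmill running of moderate intensity on 5 days of each week, 60 min a day, over 6 weeks, while Con mice had no treadmill. Livers were cleared of blood with saline and collected no later than 24 h after the final run, away from large vessels and bile ducts, and per the study's methods outlying animals had been excluded by principal component analysis. Each mouse gave 1 library and is named by its group and number (Con 1, Exe 1). The values are FPKM, fragments scaled to transcript length and to library size, so levels of different genes are compared per length.

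Peroxisomes are small organelles with a single membrane that are abundant in hepatocytes. They shorten very long and branched fatty acids and bile acid precursors by beta-oxidation, remove a carbon from phytanic acid by alpha-oxidation, and start the synthesis of ether lipids. Their enzymes are made in the cytosol and imported by the receptors Pex5 and Pex7, and in rodents several peroxisomal genes are known targets of the nuclear receptor PPAR alpha, as is the fatty acid hydroxylase gene Cyp4a14. The question here was whether the liver's peroxisomal genes differed between Exe and Con mice.

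RefSeq promoter sequences (GRCm38.p6, 250 bases before to 50 after a start site) were found for 27 of the 34 genes, with 33 start sites in all. They were searched on both strands for AGGTCA, the core motif that nuclear receptors such as PPAR alpha bind in pairs. It was found in 3 of these promoters, those of Pex11g, Phyh and Scp2, beside 16.3% of all 32851 promoters in the same table. A pair of these motifs in the same direction with 1 base between them was found in 0 of them and in 0.0396% of all promoters. The promoters of Hacl1 and Crot are shown because these genes had the largest differences between groups among the genes tested, and those of Phyh and Scp2 because these genes had the highest levels. Capitals mark AGGTCA or its reverse complement, and each sequence runs 5′ to 3′ on the gene's strand.
Hacl1, chr14:31640916-31641215, - strand: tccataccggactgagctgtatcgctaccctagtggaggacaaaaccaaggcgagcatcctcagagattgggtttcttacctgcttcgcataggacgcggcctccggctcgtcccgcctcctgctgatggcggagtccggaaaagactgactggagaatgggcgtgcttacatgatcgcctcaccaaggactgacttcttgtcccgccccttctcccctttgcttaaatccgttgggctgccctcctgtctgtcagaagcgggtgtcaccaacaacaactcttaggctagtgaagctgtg
Crot, chr5:8997097-8997396, - strand: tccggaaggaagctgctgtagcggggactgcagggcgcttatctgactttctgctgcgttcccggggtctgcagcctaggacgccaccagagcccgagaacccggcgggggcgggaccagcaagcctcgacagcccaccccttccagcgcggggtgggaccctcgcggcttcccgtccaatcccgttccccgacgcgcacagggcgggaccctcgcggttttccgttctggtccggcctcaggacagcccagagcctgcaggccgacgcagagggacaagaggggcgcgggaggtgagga
Phyh, chr2:4918746-4919045, + strand: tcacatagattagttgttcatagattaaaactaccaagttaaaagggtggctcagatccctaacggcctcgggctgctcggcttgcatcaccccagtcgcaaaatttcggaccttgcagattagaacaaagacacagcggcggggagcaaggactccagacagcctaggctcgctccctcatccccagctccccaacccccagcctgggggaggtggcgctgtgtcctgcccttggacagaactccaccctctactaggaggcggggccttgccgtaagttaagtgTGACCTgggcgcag
Scp2, chr4:108118498-108118797, - strand: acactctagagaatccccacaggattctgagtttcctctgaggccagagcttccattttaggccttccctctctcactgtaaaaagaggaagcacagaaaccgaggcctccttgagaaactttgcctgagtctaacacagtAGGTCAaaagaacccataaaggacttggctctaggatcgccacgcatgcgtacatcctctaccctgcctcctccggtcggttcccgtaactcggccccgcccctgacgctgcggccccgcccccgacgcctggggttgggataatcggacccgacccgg
The windows of Hacl1 and Crot hold no match, which says only that these letters are absent there.

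In the rank order of genes the libraries were alike, with Spearman's rho between 0.981 and 0.987 for pairs of mice. Summed over genes, FPKM ranged from 735200 to 820107 per mouse. Relative depth, estimated from 33 genes whose low FPKM stepped in whole multiples, was between 0.984 and 1.026 (largest standard error 0.0063). Genes that departed clearly from whole multiples in any mouse were not used, so a large difference in depth could not have shown. The depth in reads is unknown, so the spread between mice is the only error given. Of the hepatocyte markers, 9 of 9 listed in the files were above 0 in all mice, and their FPKM summed to between 60772 and 75836 in Con mice and between 65919 and 81933 in Exe mice. The 8 acute-phase genes had a mean log2 level between 6.95 and 10.8 in Con mice and between 6.94 and 10.8 in Exe mice, highest in Con 1 and Exe 5. In whole liver, fewer cells of a type and less RNA per cell cannot be told apart.

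Enzymes were, at the median, more abundant than peroxins. The median mean level was 128.5 FPKM for the 21 enzymes and transporters and 31.0 FPKM for the 13 peroxins, and 12 of the former but 0 of the latter averaged 100 FPKM or more. Scp2 (sterol carrier protein and peroxisomal thiolase) led with a mean of 1627 FPKM, followed by Phyh (phytanoyl-CoA hydroxylase, the first step of alpha-oxidation) at 1306 FPKM and Nudt7 (a peroxisomal CoA hydrolase) at 755.2 FPKM. These 3 genes held 63.7% of the FPKM summed over the 34 genes. At the low end were Pex10 at 2.96, Agps at 1.44, Abcd2 at 0.76 and Far1 at 0.495 FPKM. Abcd2 and Far1 did not reach 1 FPKM in at least 6 mice and were left out of the test across genes, so that 32 of the 34 were tested.

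**Figure D1:**
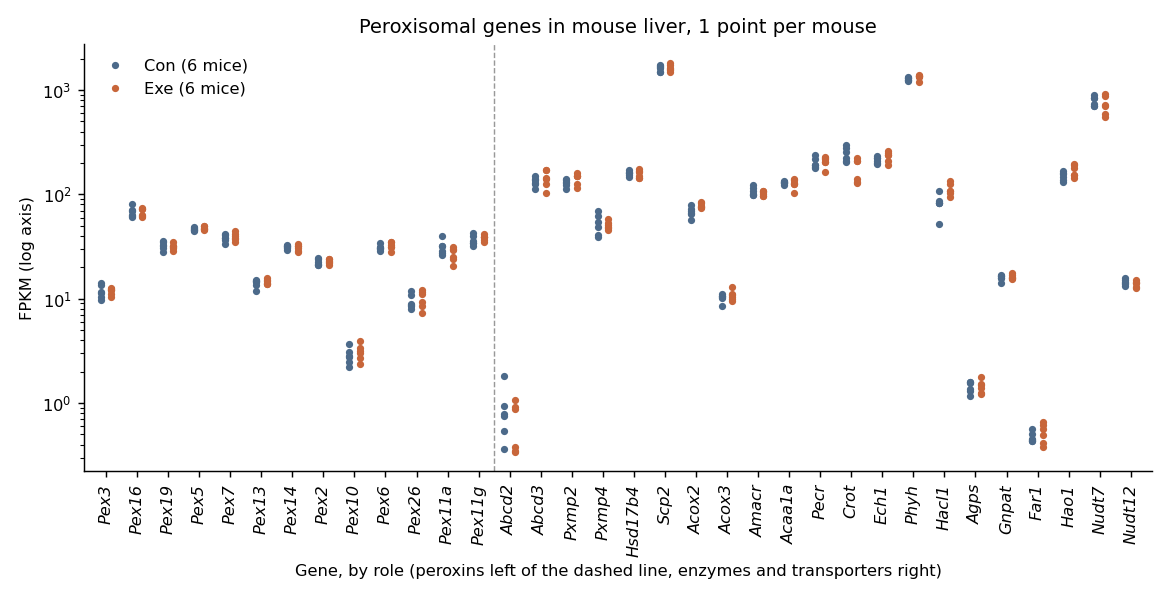
Expression of the 34 genes in FPKM on a log axis, with 1 point per mouse (6 Con, 6 Exe), ordered by role. Peroxins lie left of the dashed line and enzymes and transporters right of it, with Scp2, Phyh and Nudt7 highest and Abcd2 and Far1 under 1 FPKM on average.

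Compared with Con mice, none of the 32 genes tested was called in Exe mice by limma with Benjamini-Hochberg adjustment over all 10241 genes tested. Adding the study's cut-off, an absolute log2 fold change over 1, to an adjusted p of at most 0.05 could only give 0 as well. The study applied that cut-off with DESeq Q-values, a different test, and reported differentially expressed genes in these livers. Over all genes 0% were called at an adjusted p of 0.05, while 6.21% had an unadjusted p under 0.05, and the lowest adjusted p of the 32 was 0.789. At an unadjusted p of 0.05, 3 of the 32 passed, all enzymes: Hacl1 and Acox2 with higher and Crot with lower values in Exe mice. The 6.21% of all genes at this level divide into 4.27% with higher and 1.94% with lower values in Exe mice, and the 3 genes are 9.38% of the 32. Without Exe 5, Pxmp2 and Ech1 also passed with higher values, which made 5 of the 32 beside 8.89% of all genes. In 0 of the 32 genes were the 6 Con and 6 Exe mice free of overlap, beside 0.254% of all genes, 0.234% with Exe higher and 0.0195% with Exe lower. Estimates were above 0 for 21 of the 32 and for 57.5% of all genes. With every mouse rescaled to the same FPKM sum, 27 of the 32 were above 0 and the median of all genes moved to 0.05, so the count of directions rests on the scaling. On the log2(FPKM + 1) scale, the fold changes had a median of 0.034 for the peroxins, 0.029 for the enzymes and transporters and 0.016 for all genes tested. The peroxin median was 0.013 without Con 1, 0.010 without Exe 2, 0.011 with quantile normalization and 0.071 with rescaling. The enzyme median was 0.017 with quantile normalization, 0.065 with rescaling and -0.0095 without Con 1 and Exe 5.

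**Figure D2:**
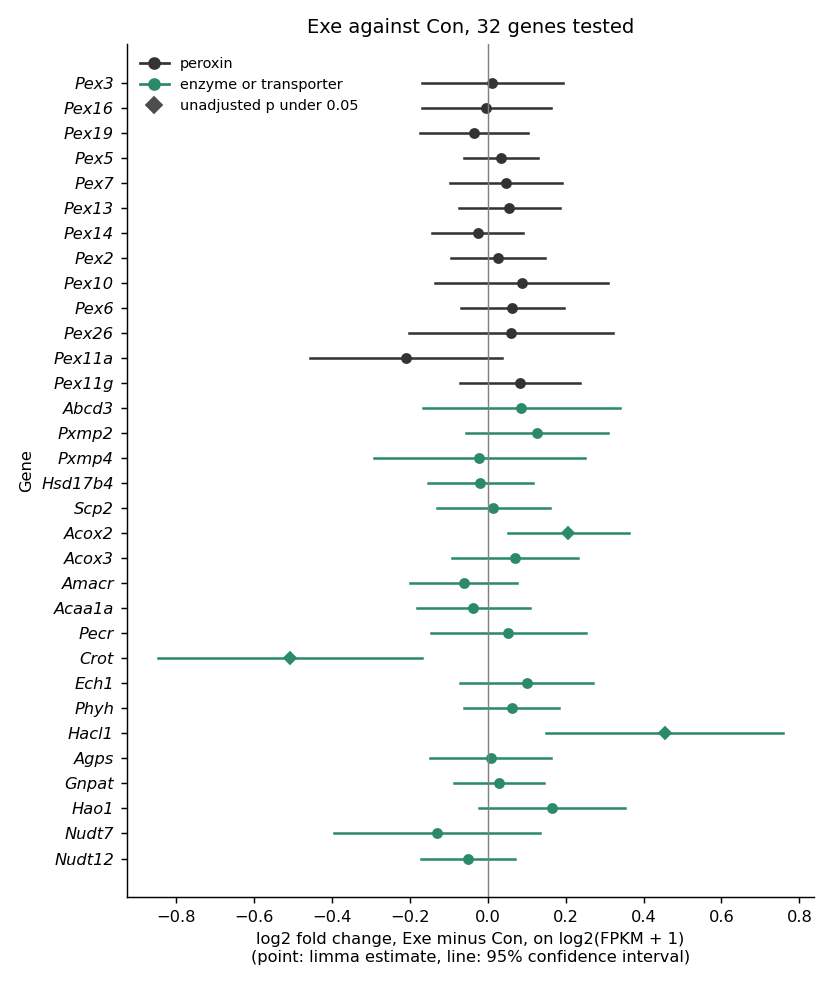
Log2 fold change (Exe minus Con, log2(FPKM + 1) scale) of the 32 genes tested, with the limma estimate as a point and its 95% confidence interval as a line; diamonds mark an unadjusted p under 0.05. The 3 diamonds are Acox2 (0.21), Hacl1 (0.45) and Crot (-0.51), and the intervals of all 13 peroxins cross 0.

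Of the 13 peroxins, 9 had higher and 4 lower mean log2 values in Exe mice, and 0 passed an unadjusted p of 0.05. The other 12 besides Pex11a lay within -0.04 to 0.09 on the log2 scale. Averaged over the 13 genes, the log2 level of a mouse was between 4.54 and 4.66 in Con mice and between 4.55 and 4.71 in Exe mice. The groups overlapped, with medians of 4.59 in Con and 4.57 in Exe mice. Exe 2 and Exe 6 lay above every Con mouse, while Exe 1, Exe 3, Exe 4 and Exe 5 lay below the Con median.

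The import receptors differed little between groups. Pex5, which binds the carboxy-terminal targeting signal carried by most peroxisomal enzymes, was at 44.8, 46.3 and 48.9 FPKM among Con and at 45.6, 46.9 and 50.0 FPKM among Exe animals (lowest, median and highest). Its within-group SD of 0.050 on the log2 scale was the smallest of the 32 genes, where the median over all genes tested was 0.14. The log2 fold change of Pex5 was 0.03 with a 95% confidence interval from -0.06 to 0.13 (adjusted p = 0.947 from limma). Pex7, the receptor for the amino-terminal signal of a few enzymes such as Phyh and Agps, was at 33.8, 38.0 and 42.0 FPKM among Con and at 35.2, 38.8 and 44.7 FPKM among Exe animals, with 1 Exe mouse above every Con mouse. Its log2 fold change was 0.05 (95% confidence interval -0.10 to 0.19, adjusted p = 0.954).

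The remaining import machinery had similarly small differences. Pex13 and Pex14 dock the loaded receptors at the membrane, and their log2 fold changes were 0.06 and -0.03. Pex2 and Pex10, ubiquitin ligases that mark the receptor for recycling, were at 0.03 and 0.09. Pex6, an ATPase that pulls the receptor out of the membrane, and its anchor Pex26 were at 0.06 each. For Pex3, Pex16 and Pex19, which place membrane proteins in new peroxisomes, the values were 0.01, -0.0037 and -0.04. Under the largest of these fold changes, that of Pex10, the means were 2.84 ± 0.51 and 3.08 ± 0.55 FPKM for Con and Exe (SD, n = 6). The 95% intervals of these 9 genes lay between -0.20 and 0.32, the bounds of Pex26.

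The members that elongate and divide peroxisomes differed in sign. Pex11a, a classic PPAR alpha target, was at 26.1, 30.4 and 39.7 FPKM among Con and at 20.4, 27.2 and 31.5 FPKM among Exe animals. Of the Exe mice, 3 lay below every Con mouse and 1 lay above the Con median. The log2 fold change was -0.21 (standard error 0.11, 95% confidence interval -0.46 to 0.04), with an unadjusted p of 0.0895 and an adjusted p of 0.849 from limma. An exact permutation test, two-sided, gave p = 0.134. Pex11g, its relative, averaged 36.5 ± 3.96 FPKM among Con and 38.5 ± 2.50 FPKM among Exe animals (SD, n = 6), with an adjusted p of 0.929 from limma and a log2 fold change of 0.08. With the acute-phase level as a covariate the log2 fold change of Pex11a was -0.25, with an unadjusted p of 0.0356 and an adjusted p of 0.844 from limma. It was -0.14 without Con 5 and also without Exe 3, with an unadjusted p of 0.214 in each, and the replicate block gave an unadjusted p of 0.159.

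**Figure D3:**
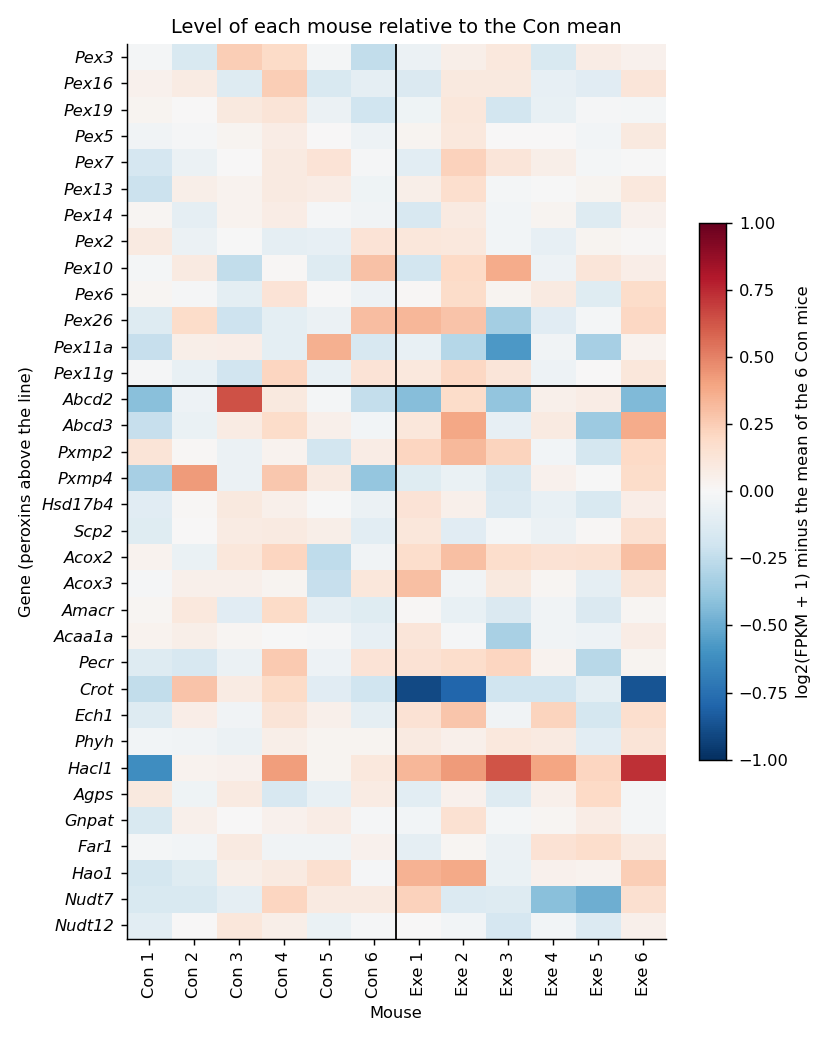
Level of each gene in each mouse as log2(FPKM + 1) minus the mean of the 6 Con mice, with red above and blue below that mean (color scale from -1 to 1), peroxins above the horizontal line and Con mice left of the vertical line. The rows of Crot (blue in Exe 1, Exe 2 and Exe 6) and Hacl1 (red in all Exe mice, blue in Con 1) stand out, and most peroxin rows are pale.

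Of the 19 enzymes, transporters and membrane proteins tested, 12 had higher and 7 lower mean log2 values in Exe mice. The mean log2 level of a mouse over these 19 was between 6.58 and 6.82 in Con mice and between 6.61 and 6.81 in Exe mice, again with overlap. The difference between the enzyme and peroxin means of a mouse was 2.11 ± 0.047 in Con mice and 2.12 ± 0.052 in Exe mice (SD, n = 6, log2 scale).

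Alpha-oxidation held the largest positive difference. Hacl1 (NCBI gene ID 56794), the lyase that cleaves 2-hydroxy fatty acyl-CoA after Phyh has acted, was at 52.0, 82.9 and 108 FPKM among Con and at 93.6, 108 and 134 FPKM among Exe animals. All 6 Exe mice lay above the Con median and 3 lay above every Con mouse, while Con 1 held the lowest value and Con 4 reached into the Exe range. The group means were 82.5 ± 17.9 and 111.7 ± 15.2 FPKM (SD, n = 6), a ratio of 1.35. The log2 fold change was 0.45 (standard error 0.14, 95% confidence interval 0.15 to 0.76) with an unadjusted p of 0.00654 and an adjusted p of 0.789 from limma, and the exact two-sided permutation p was 0.00866. Without Con 1 the log2 fold change of Hacl1 was 0.33. Phyh, which acts before it, averaged 1277 ± 39.6 FPKM among Con and 1334 ± 76.8 FPKM among Exe animals. Its log2 fold change of 0.06 had a 95% interval from -0.06 to 0.18, and 4 Exe mice lay above every Con mouse while Exe 5, at 1186 FPKM, lay below every one.

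In beta-oxidation, 5 of the 9 genes tested had higher and 4 lower mean values in Exe mice. Acox2 (NCBI gene ID 93732) is an oxidase of bile acid intermediates. Its level was 56.5, 67.6 and 78.5 FPKM among Con and 74.7, 76.4 and 83.6 FPKM among Exe animals. All 6 Exe mice were above the Con median, and 2 were above every Con mouse. The ratio of the means was 1.15 and the log2 fold change 0.21 (standard error 0.072, 95% confidence interval 0.05 to 0.36), with an unadjusted p of 0.0125, an adjusted p of 0.793 from limma and an exact permutation p of 0.0195. Acox3, a further acyl-CoA oxidase, was at 10.2 ± 0.88 and 10.8 ± 1.17 FPKM in Con and Exe mice (SD, n = 6). Amacr, which converts branched chains to the form that acyl-CoA oxidases accept, was at 107.7 ± 10.02 and 102.8 ± 5.14 FPKM. Neither passed an unadjusted p of 0.05.

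Crot (NCBI gene ID 74114), the carnitine octanoyltransferase that lets shortened acyl chains leave the peroxisome, had the largest negative difference. It was at 203, 239 and 294 FPKM among Con and at 129, 174 and 225 FPKM among Exe animals. Exe 1, Exe 2 and Exe 6, at 128.6, 139.0 and 132.3 FPKM, lay below every Con mouse, whereas Exe 3, Exe 4 and Exe 5 lay at 210.0, 209.7 and 225.0 FPKM, inside the Con range. All 6 Exe mice were below the Con median. The ratio of the means was 0.716 and the log2 fold change -0.51 (standard error 0.16, 95% confidence interval -0.85 to -0.17), with an unadjusted p of 0.00639 and an adjusted p of 0.789 from limma and an exact permutation p of 0.0303. Its within-group SD of 0.31 on the log2 scale was the largest of the 32 genes, ahead of Hacl1 with 0.28 and Pxmp4 with 0.24.

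**Figure D4:**
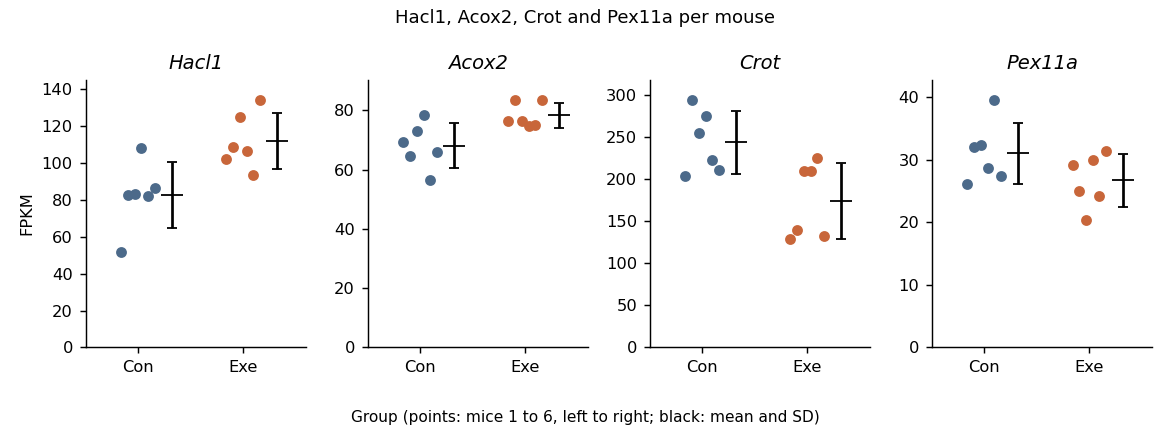
FPKM of Hacl1, Acox2, Crot and Pex11a in each mouse by group (points from left to right are mice 1 to 6), with the mean and SD of the 6 mice in black; the axes start at 0. Hacl1 and Acox2 have higher and Crot and Pex11a lower means in Exe mice, and in each panel the groups overlap.

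The other genes of beta-oxidation had smaller differences. Hsd17b4, the bifunctional protein that hydrates and dehydrogenates the chain, was at 147, 159.9 and 171 FPKM among Con and at 143, 158 and 175 FPKM among Exe animals. The groups overlapped, and the log2 fold change was -0.02 (SE 0.062, adjusted p = 0.979 from limma). Acaa1a, a thiolase that releases acetyl-CoA, was at 123, 130.4 and 135 FPKM among Con and at 104, 128 and 141 FPKM among Exe animals, with the wider spread among Exe animals, and its log2 fold change was -0.04 (SE 0.068, adjusted p = 0.961). It has a near-identical paralog, Acaa1b, with which reads could be shared, so the split between them is uncertain. Scp2 was at 1484, 1648 and 1722 FPKM among Con and at 1494, 1610.5 and 1799 FPKM among Exe animals. Its groups overlapped, with a log2 fold change of 0.01 (SE 0.067, adjusted p = 0.986). Ech1, an isomerase for unsaturated chains that is found in mitochondria as well, was at 196, 215 and 234 FPKM among Con and at 189.7, 238 and 259.8 FPKM among Exe animals, and its log2 fold change was 0.10 (SE 0.079, adjusted p = 0.922). Of its Exe mice, 4 lay above and 1, Exe 5, below every Con mouse. Pecr, a reductase of unsaturated acyl-CoA, had a log2 fold change of 0.05 (95% confidence interval -0.15 to 0.25).

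Abcd3 and Abcd2 carry acyl-CoA into the peroxisome. Abcd3 was at 112, 133 and 150.2 FPKM among Con and at 102, 141 and 173 FPKM among Exe animals, with 2 Exe mice above and 1 below every Con mouse. Its log2 fold change was 0.09 (SE 0.12, adjusted p = 0.951 from limma). Abcd2 was at 0.360, 0.770 and 1.82 FPKM among Con and at 0.340, 0.630 and 1.06 FPKM among Exe animals, with an exact permutation p of 0.435. Of the membrane proteins, Pxmp2, a channel for small solutes, had 4 Exe mice above every Con mouse but a log2 fold change of 0.13 with an interval from -0.06 to 0.31. Pxmp4 was at 39.1, 51.9 and 69.1 FPKM among Con and at 45.8, 50.1 and 58.3 FPKM among Exe animals, with a log2 fold change of -0.02 (95% confidence interval -0.29 to 0.25).

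The genes of ether lipid synthesis differed little between groups. Gnpat, which acylates dihydroxyacetone phosphate in the first step, averaged 15.9 ± 0.94 FPKM among Con and 16.2 ± 0.87 FPKM among Exe animals. Agps, which sets the ether bond, was at 1.43 ± 0.18 and 1.45 ± 0.21 FPKM, and Far1, which supplies the fatty alcohol, at 0.47 ± 0.053 and 0.52 ± 0.11 FPKM (SD, n = 6). Far1 had an exact permutation p of 0.370. Among the other enzymes, Hao1, the hepatic glycolate oxidase, averaged 149.9 ± 13.3 FPKM among Con and 168.8 ± 21.6 FPKM among Exe animals, and the log2 fold change was 0.16 with an interval from -0.02 to 0.35 (unadjusted p = 0.0801 and adjusted p = 0.847 from limma). Nudt7 and Nudt12, hydrolases of CoA and of nicotinamide nucleotides, had log2 fold changes of -0.13 (95% confidence interval -0.39 to 0.13) and -0.05 (-0.17 to 0.07).

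Of the 8 genes listed as known PPAR alpha targets (Pex11a, Abcd2, Abcd3, Acaa1a, Hsd17b4, Scp2, Ech1 and Crot), 7 were tested. Of these 3 had higher and 4 lower mean values in Exe mice, with -0.02 as the median log2 fold change. Of all genes tested, 57.5% had estimates above 0, and their median was 0.016. Crot alone passed an unadjusted p of 0.05, with lower values, which is 14.3% of the 7. Of all genes, 6.21% passed in either direction and 1.94% with lower values. The list takes in no gene of the further peroxisomal list below, so its median holds for the listed genes only. In the same mice Cyp4a14 had a log2 fold change of 2.13 and Cyp4a10 of 1.17. Neither was called after adjustment (adjusted p = 0.657 and 0.580 from limma). The study reported both as upregulated, in RNA by DESeq and also in protein, and limma on FPKM is a different test.

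A list of 51 further peroxisomal genes was described in the same way, of which 50 were in the files and 43 were tested. None was called after adjustment, and 7 passed an unadjusted p of 0.05, all with higher values in Exe mice, which is 16.3% of the 43 beside 6.21% of all genes in either direction and 4.27% with higher values. The direction depended on the scaling and on single mice: with quantile normalization 4 of the 7 that passed were higher and 3 lower, and without Con 1 the split was 6 and 2. The count was 4 without Con 5, without Con 6 or without Exe 2, beside 5.86%, 5.19% and 4.08% of all genes. Pmvk, a kinase of the mevalonate pathway, averaged 33.0 ± 5.46 FPKM among Con and 45.8 ± 6.34 FPKM among Exe animals (SD, n = 6), and its log2 fold change was 0.46 (adjusted p = 0.580 from limma). For Tmem135 the log2 fold change was 0.18, for Paox, a polyamine oxidase, 0.24, for Baat, which conjugates bile acids, 0.13, and for Dnm1l, the dynamin that cuts peroxisomes and mitochondria, 0.13. The others that passed were Acnat2 and Ddo. Acnat2 had the largest log2 fold change of the 43, 0.80, with a within-group SD of 0.72 on the log2 scale. For Ddo the log2 fold change was 0.32. Ehhadh and Acaa1b, which act in later steps of beta-oxidation, did not pass, with Ehhadh at 87.2 ± 17.2 and 92.7 ± 15.2 FPKM and Acaa1b at 526.4 ± 124.8 and 522.0 ± 169.5 FPKM in Con and Exe mice. Catalase (Cat) was at 1188 ± 135.6 and 1142 ± 75.6 FPKM.

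Whether the peroxisomal genes followed Cyp4a14 from mouse to mouse was examined with the level of Cyp4a14 and the group as terms of one limma fit, so that the slope describes mice within a group. None of the 32 genes was called (lowest adjusted p = 0.122, for Abcd3), beside 0.0391% of the 10240 genes fitted. At an unadjusted p of 0.05, 6 of the 32 passed, all with a positive slope: Abcd3, Pex7, Ech1, Hao1, Pex13 and Gnpat. Slopes were above 0 for 27 of the 32 genes and for 63.6% of all genes. The 6 genes that passed are 18.8% of the 32 beside the 15.3% of all genes that passed, 10.3% with positive and 4.92% with negative slopes. Abcd3 had a slope of 0.16 log2 units per log2 unit of Cyp4a14 (standard error 0.041), Ech1 of 0.095 (0.030) and Pex7 of 0.087 (0.024). For comparison, the paralog Cyp4a10 had a slope of 0.50 (adjusted p = 0.00165 from limma).

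Con 1 and Exe 5 had the lowest Cyp4a14 level of their groups and the highest acute-phase level. With the acute-phase level as a further covariate, 1 of the 32 genes, Pex7, passed an unadjusted p of 0.05, and 4.65% of all genes did. Without Con 1 and Exe 5, an alternative chosen after seeing the data, 3 of the 32 passed (Pex7, Abcd3 and Acox3), beside 7.97% of all genes. With every mouse rescaled to the same FPKM sum, 11 of the 32 passed, beside 20.7% of all genes. Pex11a against Cyp4a14 gave Pearson's r of 0.81 (exact permutation p = 0.0306) and Spearman's rho of 0.83 (p = 0.0583) in the 6 Con mice. In the 6 Exe mice r was 0.12 (exact permutation p = 0.903) and rho 0.43 (p = 0.419). Adjusted by Benjamini-Hochberg over these 2 groups, the exact p of r was 0.0611 in Con mice and 0.903 in Exe mice, and that of rho 0.117 and 0.419. Without Con 1 and Con 5, the farthest from the median Cyp4a14 level, r in the other 4 Con mice was 0.17. This also narrowed the Cyp4a14 range from 3.54 to 38.81 FPKM to 11.01 to 22.15 FPKM. The lower r therefore cannot decide whether the relation rests on those 2 mice. Without Exe 2 and Exe 5, r in the other 4 Exe mice was 0.65.

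**Figure D5:**
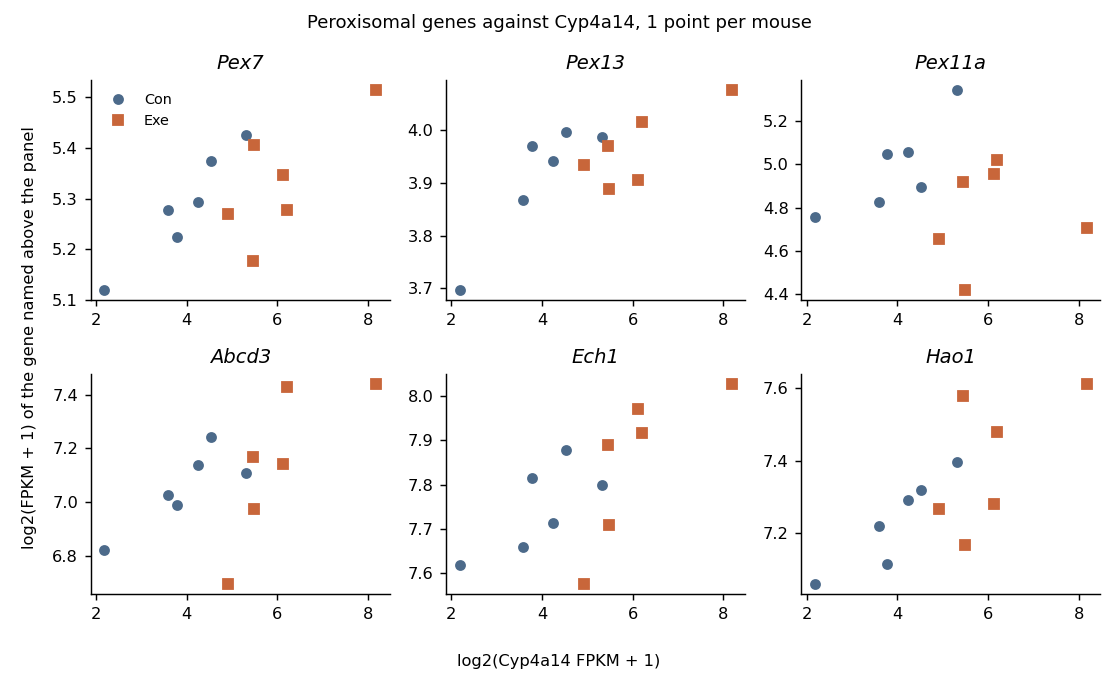
log2(FPKM + 1) of 6 genes (vertical axes, scaled per panel) against log2(Cyp4a14 FPKM + 1), with 1 point per mouse (circles Con, squares Exe). All 6 genes have positive slopes in the fit with the group as a term. The slopes of Pex7, Pex13, Abcd3, Ech1 and Hao1 passed an unadjusted p of 0.05. That of Pex11a, 0.088 (standard error 0.054), did not (unadjusted p = 0.126 from limma). Con 1 lies at the far left and Exe 2 at the far right.

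Beside these results, the 5 cholangiocyte and the 6 Kupffer cell markers all had lower mean log2 values in Exe mice. None of those tested passed an unadjusted p of 0.05, and the groups overlapped in both sums. Their FPKM summed to between 27.2 and 75.0 (cholangiocyte) and between 129.9 and 242.6 (Kupffer) in Con mice and to between 25.4 and 76.7 and between 90.6 and 228.7 in Exe mice, with every marker above 0 in all mice. For the other markers the Con range is given first: 46.9 to 77.6 and 55.8 to 67.4 FPKM for sinusoidal endothelium, 48.3 to 95.5 and 51.9 to 94.8 FPKM for stellate cells, and 235.1 to 902.9 and 400.3 to 1290.2 FPKM for red blood cells. Neutrophil markers summed to 11.4 to 32.2 and 8.71 to 49.2 FPKM and T and B cell markers to 3.0 to 6.06 and 4.70 to 8.53 FPKM. Pancreatic acinar markers reached 2.93 FPKM among Con mice and 20.2 FPKM in Exe 5, muscle markers 1.02 and 2.77 FPKM, adipose markers 0.35 and 0.34 FPKM and kidney markers 0.05 and 0.06 FPKM. Mean values were higher in Exe mice for 6 of 6 neutrophil, 7 of 7 pancreatic acinar, 7 of 8 T and B cell, 4 of 5 red blood cell, 4 of 6 sinusoidal and 6 of 9 hepatocyte markers, and lower for 5 of 7 stellate markers and 7 of 8 acute-phase genes. Of these, 2 hepatocyte markers and 1 each of the T and B cell, red blood cell and acute-phase lists passed an unadjusted p of 0.05. Of all genes tested, 6.21% passed. The part of these cells and of the acute-phase level in the results was not tested, beyond the fits with the acute-phase level or without Con 1 and Exe 5.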

How the data were processed

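Total RNA of liver tissue was sequenced on the DNBseq platform. The authors removed low-quality reads, used HISAT to align the clean reads to GRCm39, and deposited an FPKM for each gene, rounded to 2 decimals. Bowtie2 and mm10 also stand in the submitters' processing notes, without a role. The tool behind the FPKM, its annotation and any scaling between mice are not given in the sources used here. Because FPKM are not counts, limma 3.58.1 (R 4.3.3) replaced the DESeq analysis of the study. FPKM plus 1 was log2 transformed, which understates changes of low genes. Genes with at least 1 FPKM in at least 6 of 12 mice were fitted with 1 term, the group, and a mean-variance trend, with Benjamini-Hochberg adjustment over all 10241 genes. The fits were tested on simulated data in which each gene varied independently, so variation shared across genes was not covered. Single genes were also compared with an exact two-sided permutation test (924 divisions, smallest p 0.00216). Python 3.11.15, scipy 1.17.1 and matplotlib 3.10.9 were used for the rest. NCBI gene IDs of all 34 genes were found in RefSeq (GRCm38.p6), used for names and promoters.

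The members, the gene lists and the tests were chosen with earlier results of these data known. Named in full were genes past an unadjusted p of 0.05, Pex5, Pex7, the PPAR alpha targets, the 3 genes with the largest within-group SD, and, of the further list, Ehhadh, Acaa1b, Cat and the 5 with the lowest p. Other markers (sinusoidal endothelium, stellate, red blood, neutrophil, T and B, muscle, adipose and kidney cells) were summed per mouse. Alternatives were other filters, pseudocounts, scalings and variance settings, a replicate block, the acute-phase level as covariate and each mouse left out. For the slope on Cyp4a14, a fit without the group term took the place of the replicate block. Leaving out Con 1 and Exe 5 together was chosen after seeing the data. The labels number the mice without naming litters or cages. Protein sequences were not used here, and 1 gene of the further list, outside the 34, is not reported singly here.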

Additional observations from a re-analysis of the deposited data

Results flagged for a closer look

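Of 84 sets of 6 mice (42 genes in 2 groups), 2 held a mouse that lay far from the others by Dixon's ratio at 95%, where chance gives about 1 in 20, and both were in Exe 5. For Phyh, Exe 5 had 1186.16 FPKM while the other Exe mice had 1321 to 1398 FPKM (ratio 0.638). For Paox it had 19.02 FPKM, below their 23.5 to 26.0 FPKM (ratio 0.635).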

How the results depend on the processing

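In all 22 alternatives of the group comparison, limma called 0 of the genes tested after adjustment, and likewise in all 22 of the slope on Cyp4a14. The genes tested were 32, but 34 without a filter and 30 with the stricter filter. Hacl1, Acox2 and Crot passed an unadjusted p of 0.05 in all 22 of the group comparison, where Pex11a passed in 3. The alternatives reuse the same mice, and Hacl1, Acox2 and Crot were named for passing in them, so this is not independent evidence. The count at this level was 3 to 5 of the 32 with each mouse left out in turn, beside 4.08% to 8.89% of all genes. It was 5 without Exe 5, where Pxmp2 and Ech1 passed too. For the further peroxisomal genes the count was 4 to 8 with each mouse left out, and 4 without Con 5, Con 6 or Exe 2. With every mouse rescaled to the same sum, 9 of these further genes passed, beside 7.58% of all genes. Over all genes, the share of those passing that was higher in Exe mice was 68.7%, 56.8% with quantile normalization and 88.1% with every mouse rescaled to the same sum, and 21, 21 and 27 of the 32 genes had higher estimates. The medians ranged from 0.010 to 0.071 for the peroxins and from -0.0095 to 0.065 for the enzymes.

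Genes near 0 changed sign. With rescaling the log2 fold change was 0.011 for Pex14, 0.034 for Pex16, 0.0017 for Pex19, 0.019 for Hsd17b4, 0.000524 for Acaa1a, 0.016 for Pxmp4 and 0.000392 for Acaa1b. Without Con 1 and Exe 5 it was -0.00470 for Pex3, 0.026 for Pex16, -0.0095 for Scp2, -0.012 for Agps and -0.011 for Gnpat. With each mouse left out it ranged from -0.038 to 0.061 for Pex3, -0.034 to 0.045 for Pex16, -0.014 to 0.039 for Scp2, -0.00199 to 0.0437 for Gnpat, -0.018 to 0.16 for Ehhadh, -0.032 to 0.034 for Agps, -0.098 to 0.063 for Pxmp4, -0.0498 to 0.00832 for Hsd17b4, -0.18 to 0.12 for Acaa1b and -0.0689 to 0.0198 for Acaa1a. The cause was not tested.

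Same-numbered mice were not consistently alike: their correlation ran from -0.48 to 0.16, over 0.1 in 1 of 6 pairs. Of the Con mice, 1 of 6 correlated best with its own number. The labels do not say whether the numbers pair the mice, and these correlations cannot decide it. With the replicate block, 3 of the 32 genes passed an unadjusted p of 0.05, beside 5.54% of all genes, and 0 passed after adjustment. With 6 mice a group, the 95% intervals of the 32 log2 fold changes reached from -0.85 to 0.76.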
